A study of Mus musculus with 12 samples.

Results

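Transcript clusters of 7 microRNA genes with known links to myeloid cells or leukemia (Mir223, Mir142, Mir155, Mir146, Mir221, Mir222 and Mir103-2) were followed in bone marrow monocytes and macrophages of mice carrying a human leukemia. Members were found by gene symbol in the array's annotation, and each symbol's cluster was chosen by its mean log2 intensity over the 12 arrays, the highest being taken. All 7 symbols were found, as 7 of 65956 transcript clusters, 1216 of which carry a microRNA symbol. The mice were Rag2-/-gamma c-/- on a BALB/c background, which lack T, B and NK cells, and this holds for treated and control mice alike. Human MEC1 cells, a B cell line from a patient's chronic lymphocytic leukemia, were injected intravenously, and marrow was taken at the early stage (21 d, mice aged 11 weeks) or the late stage (31 d, aged 13 weeks). Age-matched control mice of the same strain received no MEC1. There were 3 mice in each of the 4 groups and 1 array per mouse. Monocytes and macrophages were purified magnetically, so each array reads a bulk sample, in which fewer cells of a type and less RNA per cell cannot be told apart. MEC1 is a single cell line, so the mice of a MEC1 group vary as hosts of one leukemia.

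A microRNA gene is transcribed as a long primary transcript, cut in the nucleus by Drosha to a hairpin, exported by exportin 5 and cut by Dicer to the short mature strand, which an Argonaute protein uses to find mRNAs through its seed. miR-223 is abundant in granulocytes and monocytes and restrains their production and activation, and miR-142 is made throughout the blood system. miR-155, cut from the transcript once called Bic, and miR-146a are induced by inflammatory signals, the first sustaining and the second damping the response. miR-221 and miR-222 lie beside each other and act on the stem cell factor receptor Kit and the cell cycle inhibitor Cdkn1b, and miR-103 is cut from introns of pantothenate kinase genes. The values are log2 intensities of total RNA. The array reads labelled copies of this RNA and cannot separate a primary transcript, a hairpin and a mature strand, so a change below is a change of a precursor cluster and not a measured change of the mature microRNA.

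The mature strands are shown because the seed decides which members can act on the same mRNAs. They were taken from RefSeq (GRCm38.p6), where all 7 members have a hairpin, and are written 5′ to 3′ with the seed, bases 2 to 8, in capitals.
miR-223-3p: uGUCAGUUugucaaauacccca
miR-142a-3p: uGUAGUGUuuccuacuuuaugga
miR-142a-5p: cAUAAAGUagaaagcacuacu
miR-155-5p: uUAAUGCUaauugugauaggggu
miR-146a-5p: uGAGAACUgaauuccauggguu
miR-221-3p: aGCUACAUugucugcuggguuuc
miR-222-3p: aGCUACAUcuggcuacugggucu
miR-103-3p: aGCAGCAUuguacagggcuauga
Of the strands shown, miR-221-3p and miR-222-3p share the seed GCUACAU and differ after it, while the other 6 each have a seed of their own. Mir223 lies on the plus strand at chrX:96242817-96242926, Mir142 at chr11:87756864-87756927 on plus, Mir155 at chr16:84714140-84714204 on plus and Mir146, which gives miR-146a, at chr11:43374397-43374461 on minus. Mir221 (chrX:19146294-19146388) and Mir222 (chrX:19146893-19146971) lie on the minus strand with 504 bases between them, and Mir103-2 lies on plus at chr2:131288052-131288137, within the gene Pank2.

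What a cluster holds differs between members. The brightest and only cluster of Mir223 is assigned to both Mir223 and F630028O10Rik, a long non-coding RNA, and the array cannot tell them apart. The cluster of Mir155 carries the gene IDs of both Mir155 and its host transcript Mir155hg. Mir142 has 2 clusters, of which the brighter was used (mean log2 intensity over the 12 arrays of 10.177). The other (mean 6.371) is assigned to Mir142 and to Mir142b, a hairpin on the opposite strand, and is described beside it. These 12-array means chose the clusters and are no finding, and since the probes of different clusters respond differently, levels are not ranked between members.

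Array-wide measures separated MEC1 from control arrays. The mean of the 4 hybridisation controls, RNAs added in fixed amount, was 10.47 to 10.868 in the 6 control arrays and 11.8 to 13.183 in the 6 MEC1 arrays. The average difference was 1.53 (exact permutation test within days, two-sided, p = 0.005, the smallest this design allows). The median of the mitochondrial transcripts differed by -1.24 on average, lower in MEC1 mice (exact permutation p = 0.005). MEC1 31 d replicate 3 stood farthest out in both, at 13.183 and 6.135. The poly-A controls were also higher in MEC1 mice, by 0.86 on average (exact permutation p = 0.005). Monocyte and macrophage markers were bright in all groups, with a list median of 11.43 to 11.97 in control arrays and 8.46 to 9.92 in MEC1 arrays at 31 d (8 of 11 fell and 1, Mertk, rose). Neutrophil markers were also bright (list median 15.99 to 16.72 in controls, 13.0 to 16.31 in MEC1 mice at 31 d, 4 of 11 fell). The erythroid list median was 10.23 to 12.14 in controls and 4.90 to 5.65 in MEC1 mice at 31 d, where 8 of 8 fell, and basophil and mast cell genes fell in 4 of 4. B cell markers had a list median of 4.05 to 4.19 in controls and 4.88 to 5.38 in MEC1 mice at 31 d, with rises in 4 of 6, among them Pax5 by 2.23. Of 7 T and NK cell markers 3 were bright enough to be tested, and these rose, and of megakaryocyte markers 1 of 4 fell, both at 31 d. For comparison, 29.0% of 19490 tested genes with 1 symbol fell at 31 d and 21.5% rose. The shares of neutrophil (36.4%) and megakaryocyte (25.0%) markers that fell were near that. Mertk, Eomes and the B cell genes Ebf1 and Cd79a were above the array median in 0 of 6 control arrays. They entered the test through MEC1 arrays, which favours rises in the marker counts. The part of these array-wide and cell type differences in the results below was not tested, except where a value is given.

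At 31 d the clusters of Mir142, Mir221, Mir222 and Mir103-2 rose in MEC1 mice and that of Mir223 fell. At 21 d the calls were fewer: Mir142 and Mir103-2 rose. Clusters were tested with limma, with p-values adjusted by Benjamini-Hochberg over the 37240 clusters that lay above the array's median in at least 3 arrays, and a call is an adjusted p under 0.05. Of the members 6 were tested and 1, Mir146, was not, since it passed the array median in 1 of 12 arrays. Mir222 entered through 4 MEC1 arrays and 1 control array, so it was tested through the group in which it was higher, and its call is a description. At 21 d 2 of 6 tested members were called, beside 4.34% of all tested clusters: 2 rose, beside 1.83%, and 0 fell, beside 2.51%. At 31 d 5 of 6 were called (4 of 5 without Mir222), beside 43.8%: 4 rose, beside 22.6%, and 1 fell, beside 21.1%. MEC1 and control arrays did not overlap in 3 of 6 members at 21 d, all higher in MEC1 mice, beside 28.5% of clusters in either direction, 14.9% higher and 13.7% lower. At 31 d they did not overlap in 6 of 6, beside 59.6%, with 5 higher (31.2%) and 1 lower (28.4%). The late comparison thus separated a large share of all clusters, and these counts are a description.

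**Figure D1:**
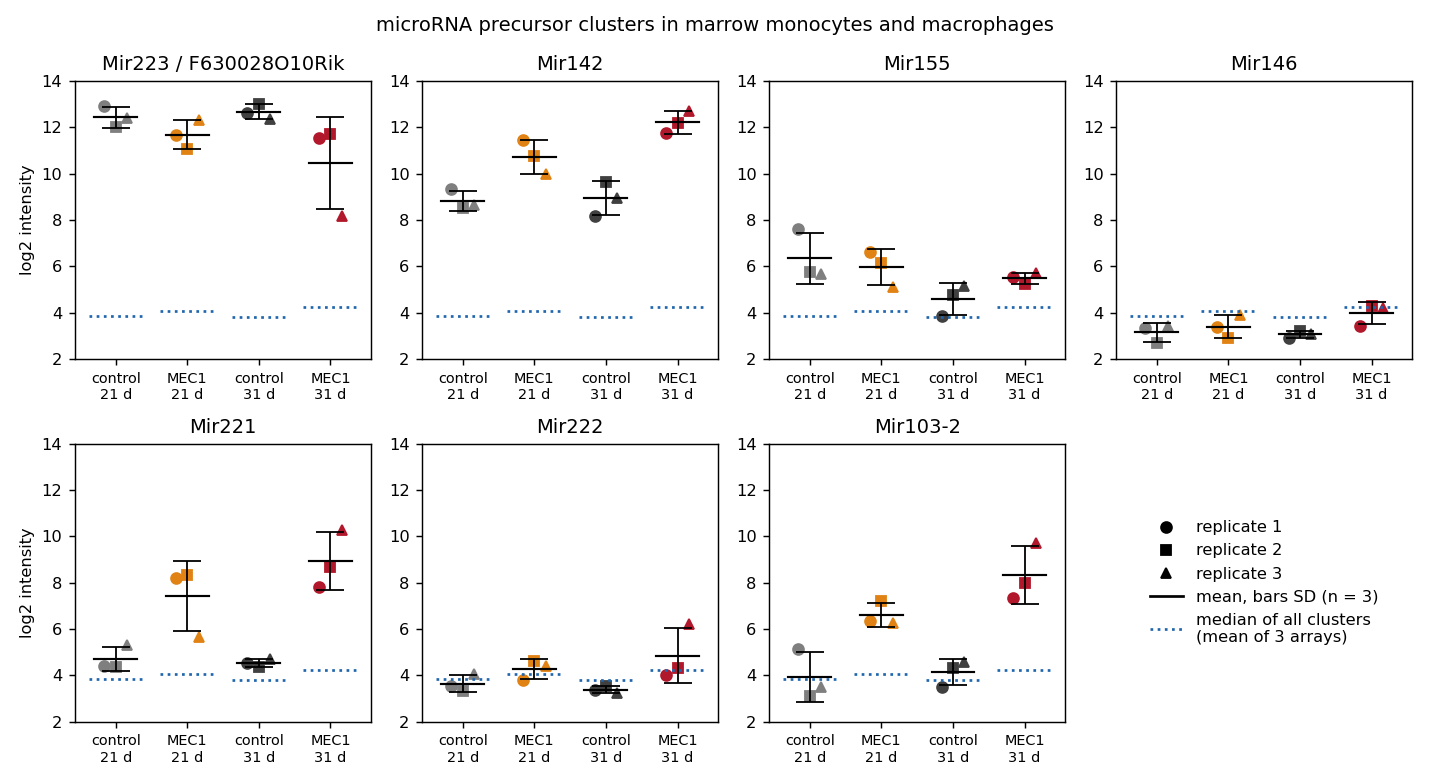
Log2 intensity (y axis) of the 7 clusters in the 12 arrays, by group (x axis), with the mean and SD of 3 mice and, dotted, the mean array median of the group. Mir142, Mir221 and Mir103-2 lie higher in all 6 MEC1 arrays than in the control arrays of the same day, and Mir223 has 1 low array, MEC1 31 d replicate 3, at 8.17.

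Mir223 was bright in every array, between the 92.4th and 97.9th percentile of all clusters. Its log2 intensity was 12.92, 12.01 and 12.40 in control mice and 11.66, 11.06 and 12.32 in MEC1 mice at 21 d. The groups overlapped on that day, and the difference of -0.76 (SE 0.764, 95% interval -2.45 to 0.92, limma adjusted p = 0.553) did not pass. At 31 d it was 12.63, 13.01 and 12.38 in control mice and 11.52, 11.70 and 8.17 in MEC1 mice. All 3 MEC1 arrays were below all 3 control arrays, but the third stood far below the other two, and the SD of 1.988 was above the 0.317 of the controls. The cluster fell by 2.21 on the log2 scale at 31 d (SE 0.764, 95% interval -3.89 to -0.53, limma adjusted p = 0.0376). Without MEC1 31 d replicate 3 the difference was -1.06 (adjusted p = 0.0536). It also missed the threshold without control 31 d replicate 1, 2 or 3 (0.0760, 0.103 and 0.0671), without control 21 d replicate 3 (0.0502), with quantile normalization (-1.72, 0.0656), with no moderation (0.0761) and when fitted on the 6 arrays of 31 d alone (0.0917). With array weights it was -1.19 (0.0442). Clusters of the same control level, within log2 0.5, had a median difference of -1.02 at 31 d, and 12.1% of them fell further.

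Mir142 rose on both days. Its hairpin is shown with the strand of miR-142a-3p in capitals.
Mir142 hairpin: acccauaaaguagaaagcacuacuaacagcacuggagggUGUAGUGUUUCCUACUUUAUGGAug
Its log2 intensity was 9.33, 8.52 and 8.64 in control mice and 11.44, 10.75 and 9.98 in MEC1 mice at 21 d. At 31 d it was 8.19, 9.66 and 8.97 in control mice and 11.74, 12.19 and 12.72 in MEC1 mice. The groups did not overlap on either day, and the lowest MEC1 array of all, 9.98, lay above the highest control array of all, 9.66. Mir142 rose by 1.89 at 21 d (SE 0.444, 95% interval 0.92 to 2.87, limma adjusted p = 0.0411), which is 3.71-fold. At 31 d it rose by 3.28 (SE 0.444, 95% interval 2.30 to 4.25, limma adjusted p = 0.000655), which is 9.69-fold. Clusters of its control level moved the other way, with a median difference of -0.43 at 21 d and -0.93 at 31 d, and 4.35% of 2044 such clusters rose further at 31 d. Leaving out 1 array at a time gave 2.90 to 3.64 at 31 d, always past the threshold, but the call at 21 d was lost in 6 of 12 such fits. These left out control or MEC1 replicate 2 of 21 d (limma adjusted p = 0.116 and 0.118), control 21 d replicate 3 (0.129), MEC1 21 d replicate 1 (1.53, 0.138), control 31 d replicate 3 (0.0655) or MEC1 31 d replicate 2 (0.0592). It was also lost with no filter (0.0556), no moderation (0.0922), the 6 arrays of 21 d alone (0.0766) or the mean of both clusters (1.38, 0.0929).

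The fainter cluster assigned to Mir142 and Mir142b did not pass on either day. It had a difference of 0.87 at 21 d (limma adjusted p = 0.359) and 1.06 at 31 d (SE 0.559, 95% interval -0.17 to 2.29, adjusted p = 0.139). The gap between the brighter and the fainter cluster within an array was 2.94 ± 1.352 in control and 3.96 ± 0.225 in MEC1 mice at 21 d, and 3.06 ± 0.24 and 5.27 ± 0.567 at 31 d (SD, n = 3). This gap was larger by 1.62 in MEC1 mice on average over both days (exact permutation test within days, two-sided, p = 0.02, adjusted over 4 such pairs 0.02). The 4 pairs were chosen after seeing the data. The array-wide shift depended on brightness and need not cancel in such a gap. At 31 d clusters of the level of the brighter cluster had a median difference of -0.93 and those of the level of the fainter one -0.31.

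Of the pair tied to inflammatory activation, Mir155 was not called on either day, and Mir146 was too dim to enter the same fit. Mir155 had a log2 intensity of 7.63, 5.75 and 5.65 in control and 6.62, 6.15 and 5.10 in MEC1 mice at 21 d. The ranges overlapped and the difference was -0.39 (limma adjusted p = 0.681). At 31 d it was 3.85, 4.77 and 5.16 in control and 5.52, 5.23 and 5.70 in MEC1 mice. The MEC1 arrays were all higher, by a gap of 0.07 between the nearest, and the difference of 0.89 (SE 0.549, 95% interval -0.32 to 2.10, adjusted p = 0.2) did not pass. Between the control groups Mir155 had a difference of -1.75 from 21 to 31 d (SE 0.549), which did not pass either (adjusted p = 0.467).

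Mir146 lay near or below the array median, with a log2 intensity of 2.70 to 3.44 in the 6 control arrays. In MEC1 mice it was 3.40, 2.89 and 3.91 at 21 d and 3.42, 4.27 and 4.21 at 31 d. The lowest MEC1 array at 31 d lay above the control arrays of that day (2.89, 3.21 and 3.08). In a fit with no filter on dim clusters its difference was 0.25 at 21 d (limma adjusted p = 0.623) and 0.91 at 31 d (SE 0.3, 95% interval 0.25 to 1.57, adjusted p = 0.0318). Clusters of that dim level had a median difference of 0.42 at 31 d.

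Mir221 and Mir222 share a seed and lie side by side. Both hairpins are shown with the strand of miR-221-3p and miR-222-3p in capitals, so that the shared seed can be seen in place.
Mir221 hairpin: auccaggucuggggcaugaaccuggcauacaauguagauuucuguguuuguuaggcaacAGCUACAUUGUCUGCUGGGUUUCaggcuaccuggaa
Mir222 hairpin: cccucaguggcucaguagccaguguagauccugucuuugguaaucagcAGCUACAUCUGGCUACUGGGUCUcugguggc
Mir221 had a log2 intensity of 4.42, 4.38 and 5.33 in control and 8.22, 8.35 and 5.67 in MEC1 mice at 21 d. The groups did not overlap, but MEC1 21 d replicate 3 was close to the highest control. At 31 d Mir221 was 4.53, 4.37 and 4.69 in control and 7.81, 8.67 and 10.28 in MEC1 mice, a gap of several log2 units with no overlap. The difference was 2.70 at 21 d (SE 0.723, 95% interval 1.11 to 4.30, limma adjusted p = 0.0607), which did not pass. With each array left out in turn it was 2.23 to 3.58 at 21 d (limma adjusted p 0.00785 to 0.196). It passed only without MEC1 21 d replicate 3 (3.58, 0.00785) or without MEC1 31 d replicate 3 (0.0333). Mir221 rose by 4.39 at 31 d (SE 0.723, 95% interval 2.80 to 5.98, adjusted p = 0.00157). In the control arrays of that day the negative-control probes had medians of 4.685 to 5.22, above Mir221 in each array. Those are other probes, and their median also lay above the array median (3.8 to 3.81). The control level of Mir221 was thus low, and no fold is given. With each array left out in turn the rise at 31 d was 3.71 to 4.95, always past the threshold.

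Mir222 had a log2 intensity of 3.54, 3.33 and 4.04 in control and 3.82, 4.64 and 4.39 in MEC1 mice at 21 d, with overlap. At 31 d it was 3.38, 3.53 and 3.24 in control and 4.0, 4.34 and 6.21 in MEC1 mice, with no overlap and 1 high array, replicate 3. The difference at 21 d was 0.65 (limma adjusted p = 0.423). At 31 d Mir222 rose by 1.47 (SE 0.476, 95% interval 0.42 to 2.52, adjusted p = 0.0296). None of the 3 control arrays of that day was above its array median, so this is a difference from a dim level, and no fold is given. Without MEC1 31 d replicate 3 the difference was 0.79 (adjusted p = 0.0546), and without control 31 d replicate 1, 2 or 3 the adjusted p was 0.0653, 0.0616 and 0.0787. It was also not called with quantile normalization (1.33, adjusted p = 0.115), arrays centred on their median (1.04, 0.0842), no moderation (0.0602) or only the 6 arrays of the day (0.0725). Within an array Mir221 stood above Mir222 by 1.07 ± 0.206 in control and 3.13 ± 1.639 in MEC1 mice at 21 d, and by 1.15 ± 0.305 and 4.07 ± 0.26 at 31 d (SD, n = 3). This gap was larger by 2.49 in MEC1 mice on average over both days (exact permutation p = 0.01, adjusted over the 4 pairs 0.0133), and by 2.17 to 2.95 with 1 array left out. The pair was chosen after these values were seen, so its p-value is a description. Mir222 was above the array median in 1 of 6 control arrays, so the gap is measured against a dim cluster, and it does not show by how much the Mir222 transcript itself moved.

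Mir103-2 lay between the 12.1th and 70.7th percentile of its array in control mice and between the 87.4th and 95.7th in MEC1 mice at 31 d. Its log2 intensity was 5.14, 3.12 and 3.48 in control and 6.33, 7.19 and 6.26 in MEC1 mice at 21 d. At 31 d it was 3.49, 4.34 and 4.56 in control and 7.32, 7.97 and 9.72 in MEC1 mice. The groups were apart on both days, and all MEC1 arrays lay above all control arrays. Mir103-2 rose by 2.68 at 21 d (SE 0.644, 95% interval 1.26 to 4.10, limma adjusted p = 0.0445) and by 4.21 at 31 d (SE 0.644, 95% interval 2.79 to 5.63, adjusted p = 0.00113). In control mice 3 of 6 arrays were above the array median, so these are differences from a dim level, and no fold is given. With 1 array left out the value at 31 d was 3.52 to 4.71, always past the threshold, while the call at 21 d was lost in 8 of 12 such fits. These left out control 21 d replicate 2 or 3 (limma adjusted p = 0.13 and 0.139), MEC1 21 d replicate 1 or 2 (0.116 and 0.143), control 31 d replicate 1, 2 or 3 (0.0538, 0.062 and 0.0664) or MEC1 31 d replicate 2 (0.0608). It was also lost with no filter (0.0611), quantile normalization (0.0687), no moderation (0.101) or the 6 arrays of 21 d alone (0.0731).

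Its sister hairpin and its host gene give points of comparison. Mir103-1, at chr11:35782396-35782481 on the plus strand, gives the same mature strand as Mir103-2, in capitals below. Both hairpins have 86 bases, and 69 positions are identical without gaps.
Mir103-2 hairpin: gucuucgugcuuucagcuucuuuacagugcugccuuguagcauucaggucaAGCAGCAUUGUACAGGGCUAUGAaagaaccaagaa
Mir103-1 hairpin: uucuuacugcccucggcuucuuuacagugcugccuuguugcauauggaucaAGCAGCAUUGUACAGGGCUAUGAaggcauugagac
Mir103-1 rose by 0.93 at 31 d (from 4.09 to 5.02, SE 0.244, limma adjusted p = 0.0123) and had a difference of 0.67 at 21 d (adjusted p = 0.136). Mir107, whose mature 3p strand has the same seed, had a difference of 0.85 at 31 d (adjusted p = 0.0566), and Mir146b, which shares the seed of miR-146a-5p, was too dim to be tested. Pank2, which makes pantothenate kinase for coenzyme A synthesis and holds Mir103-2, fell by 1.12 at 31 d (from 10.86 to 9.75, SE 0.255, adjusted p = 0.00687). Pank1 fell by 0.63 (adjusted p = 0.0324), and Pank3 had a difference of -0.25 (adjusted p = 0.315). The gap between Mir103-2 and Mir103-1 within an array was larger in MEC1 mice by 2.64 on average over both days (exact permutation p = 0.005, adjusted over the 4 pairs 0.01). That between Mir103-2 and Pank2 was larger by 4.41 (exact permutation p = 0.005, adjusted 0.01). Both pairs were chosen after these values were seen, so their p-values, the smallest this design allows before adjustment, are a description. Clusters of the level of Pank2 had a median difference of -1.07 at 31 d, close to that of Pank2 itself, and Pank2 was not called at 21 d (-0.82, limma adjusted p = 0.0936). Clusters of the level of Mir103-2 and of Mir103-1 had medians of 0.40 and 0.42 at 31 d.

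**Figure D2:**
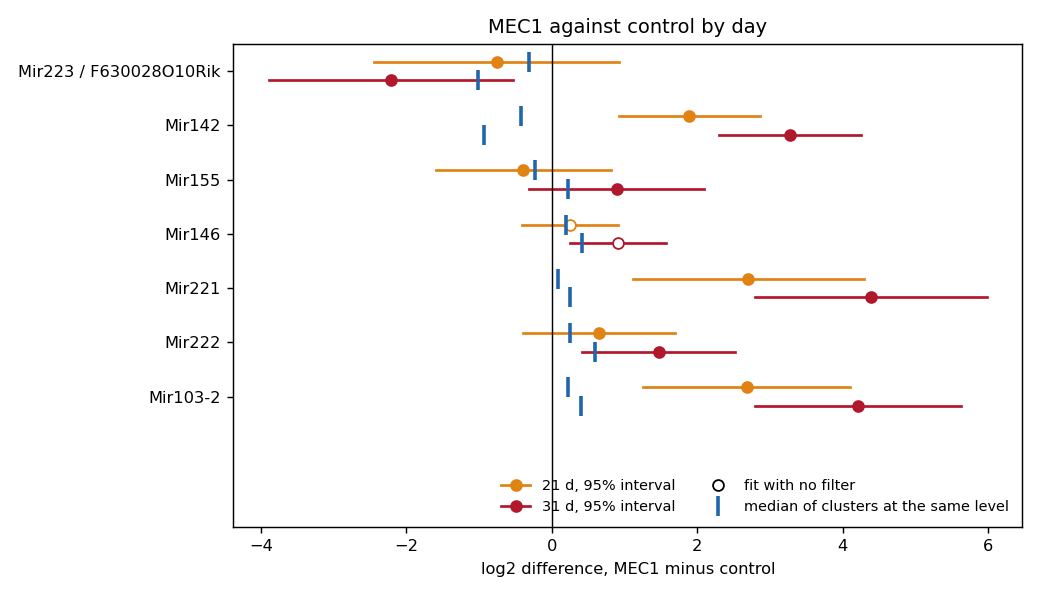
Log2 difference, MEC1 minus control (x axis), of each member at 21 d and 31 d, with its 95% interval from limma. Blue ticks give the median difference of tested clusters (for Mir146, of all clusters) within log2 0.5 of the member's control level. Open circles give the fit with no filter. At 31 d Mir142, Mir221 and Mir103-2 lie at 3.28, 4.39 and 4.21, and their ticks, at -0.93, 0.25 and 0.40, are outside their intervals.

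The array-wide shift depended on how bright a cluster was, so each member was set beside clusters of its own control level. Over all tested clusters the median difference was 0.02 at 21 d and 0.04 at 31 d. Around the level of Mir221 the median was 0.08 and 0.25, and 1 of 8291 clusters rose more at 21 d and 5 of 9429 at 31 d. Around that of Mir103-2 it was 0.22 and 0.40, and 2 of 12754 and 7 of 13641 clusters rose more. Around that of Mir222 it was 0.25 and 0.59, with 6.48% and 2.30% rising more. These were tested clusters, and those below the array median in control mice entered the test through MEC1 arrays, which favours rises. With no filter, clusters at the dim level of Mir146 had a median difference of 0.42 at 31 d. The array median was itself higher by 0.43 on that day. Dim clusters were thus somewhat higher in MEC1 mice at 31 d, and few of the tested ones differed by as much as Mir221 or Mir103-2. Since the members were chosen with earlier results of these data known, this place among clusters is a description.

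The members were also set beside the 594 other tested clusters with 1 microRNA symbol. Of these 12 rose and 8 fell at 21 d (median 0.15). At 31 d 199 rose (33.5%) and 27 fell (median 0.48), beside 22.6% and 21.1% of all clusters. Some, such as Mir872 with a control mean of 2.75 at 31 d, were below the array median in control mice. Such clusters entered the test through MEC1 arrays, which favours rises in these counts. None of the 594 had a larger difference at 31 d than Mir221 or Mir103-2, and 1, Mir16-2, had a larger one than Mir142. For Mir222 62 were larger and for Mir155 170. Mir223 was near the other end, with 6 of 594 below it. At 21 d 2 clusters exceeded Mir221, 2 exceeded Mir103-2 and 3 exceeded Mir142. The members were chosen with earlier results of these data known, so these ranks are a description and no test.

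**Figure D3:**
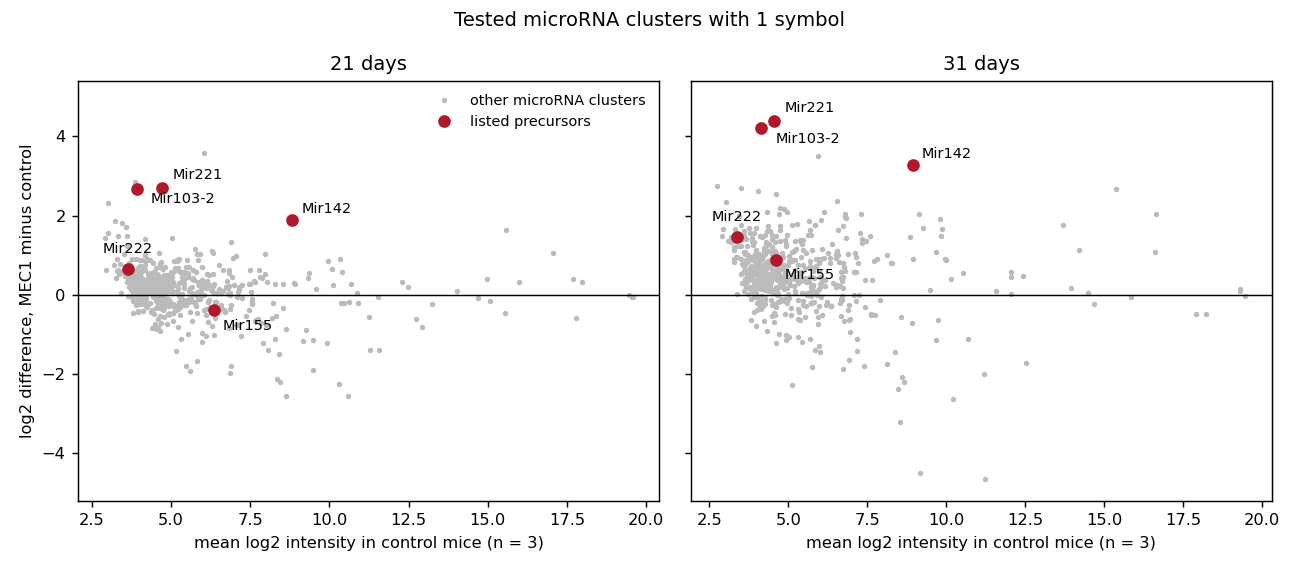
Log2 difference, MEC1 minus control (y axis), against the mean log2 intensity in control mice (x axis, n = 3) for the tested clusters with 1 microRNA symbol, at 21 and 31 days. Red points are members, without Mir223, whose cluster has 2 symbols. Mir221 and Mir103-2 lie above all grey points at 31 days, at 4.39 and 4.21. The members were chosen with earlier results of these data known.

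A list of other hairpins linked to myeloid cells or leukemia was mixed. Of 36 listed, 16 had a cluster of their own and 9 were tested. At 31 d 3 rose (33.3%, beside 33.5% of the 594 other microRNA clusters) and 2 fell (22.2%, beside 4.55%), with a median of 0.58. Over all tested clusters the shares were 22.6% and 21.1%. Mir27a and Mir24-2, neighbours in one primary transcript, fell by 2.01 (limma adjusted p = 0.024) and 1.81 (0.00711), while Mir181b-2 and Mir29a rose by 1.47 (0.00496) and 1.42 (0.012). The calls did not cover all related hairpins of the list: Mir23a (-1.15, 0.119), Mir29b-1 (-0.25, 0.562) and Mir181a-2 (0.58, 0.18) were not called. The risen hairpins entered the test through MEC1 arrays: in control mice Mir181b-2 and Mir34c were above the array median in 0 of 6 arrays and Mir29a in 2 of 6. Of 3 listed erythroid hairpins 0 had a cluster with that symbol alone, so they were not analysed here.

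Mir142, Mir221, Mir222, Mir103-2 and Mir223 were at their extremes in the array with the highest hybridisation controls. This array, MEC1 31 d replicate 3 at 13.183, had the highest Mir142, Mir221, Mir222 and Mir103-2 and the lowest Mir223. With this control level as a covariate 0 of 6 members were called on either day. At 21 d it left 4 of all 37240 tested clusters called, beside 1615 without it, so the 0 is not particular to the members. At 31 d Mir142 then had 1.96 and Mir103-2 0.92, while Mir221 turned to -0.72, Mir222 to -2.10 and Mir223 to 4.57. The slope of the covariate comes from the spread within groups, with an SD of 0.541 in MEC1 mice at 31 d and 0.087 to 0.128 in the other groups. It thus leans mostly on MEC1 31 d replicate 3, and these values are not read as directions. Mir155 changed little, from 0.89 to 0.61, and its highest value, 7.63, was in a control array. The covariate itself separated MEC1 from control arrays without overlap, so it and the leukemia cannot be told apart in these arrays.

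**Figure D4:**
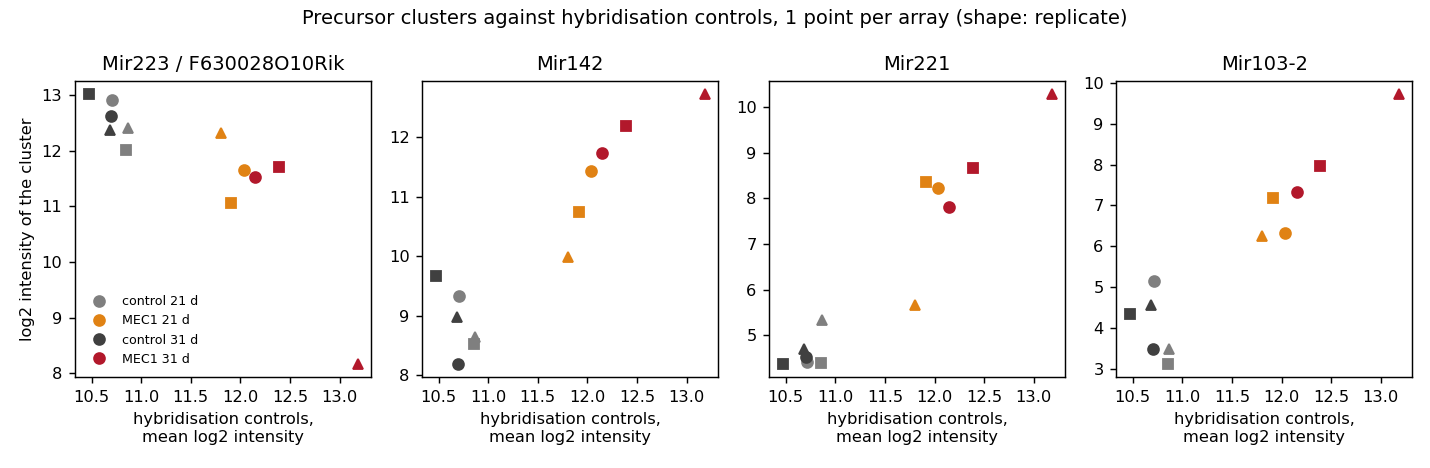
Log2 intensity of 4 members (y axes) against the mean log2 intensity of the 4 hybridisation controls (x axes), 1 point per array, coloured by group and shaped by replicate. Control arrays lie between 10.47 and 10.868 and MEC1 arrays between 11.8 and 13.183, with no overlap.

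Whether the effect of MEC1 differed between the days was tested with limma as the difference of both effects, and no member passed. The change from 21 to 31 d was 1.38 for Mir142 (SE 0.627, adjusted p = 0.388), 1.69 for Mir221 (0.471), 1.53 for Mir103-2 (0.467) and -1.45 for Mir223 (0.545). Of the 6 members 0 were called, beside 0.00269% of all clusters, and 1, Mir142, had an unadjusted p under 0.05, beside 12.9%. Between control mice at 31 and 21 d 0 members were called, beside 0.00806%, and 1, Mir155, had an unadjusted p under 0.05, beside 6.54%.

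Among genes that make and control microRNAs, the calls at 31 d were falls. Among 18 tested processing genes 0 rose and 8 fell (median -0.48). Ago2, the Argonaute that cuts its targets, fell by 2.82 (SE 0.377, limma adjusted p = 0.000618), and Xpo5, the hairpin exporter, by 1.87 (0.00445). Srrt, which aids the nuclear step, fell by 1.88 (0.0024), and Khsrp, a binder of some hairpin loops, by 1.69 (0.0009). The nuclease genes Drosha and Dicer1 fell by 1.36 (0.00237) and 1.65 (0.000559). Of 14 transcription regulators of the members 0 rose and 11 fell (median -2.27). The AP-1 genes Fos and Jun fell by 3.13 (0.00157) and 3.06 (0.00496), Irf8, a regulator of monocyte fate, by 2.62 (0.00088), and the progenitor factor Myb by 2.54 (0.00205). For comparison, 21.5% of 19490 tested genes with 1 symbol rose at 31 d and 29.0% fell (median -0.10). At 21 d 0 genes of either list were called, beside 2.56% and 3.27%. These falls stand beside the lower monocyte and macrophage markers given above. They also stand beside lower values of bright clusters in general: around the control levels of Mir142 and Pank2 the medians at 31 d were -0.93 and -1.07. The genes of these lists were not set beside clusters of their own level.

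Published targets of the members were counted by the precursor they belong to. For miR-223, whose cluster fell, 6 of 8 targets fell and 0 rose at 31 d (median -0.94), among them Nfia, which opposes granulocyte development, by 2.47 (limma adjusted p = 0.00431), E2f1 by 1.31 (0.00473), the inflammasome sensor Nlrp3 by 1.26 (0.0498) and Lmo2 by 1.12 (0.00161). For miR-142, whose cluster rose, 3 of 8 fell and 0 rose (median -0.31). They were the cytokine receptor Il6st (-1.99, 0.0172) and the actin regulators Wasl (-0.49, 0.0366) and Rac1 (-0.47, 0.0285). For miR-155, not called, 5 of 9 fell and 0 rose (median -0.55). The phosphatase Inpp5d fell by 1.64 (0.000736), the repressor Bach1 by 1.26 (0.0016), Tab2 by 0.93 (0.00227) and the myeloid factor Spi1 by 0.81 (0.0421).

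For miR-146, 6 of 7 fell and 1, Relb, rose (median -1.44). The chemokine receptor Cxcr4 fell by 2.28 (limma adjusted p = 0.00424), Irf5 fell by 2.12 (0.000752), Notch1 by 1.62 (0.000203) and Irak2 by 1.44 (0.00518). For miR-221 and miR-222, 3 of 10 fell and 2 rose (median 0.10). Kit, the receptor of stem cell factor, fell by 1.87 (0.00154), Foxo3 by 1.83 (0.000908) and the cell cycle inhibitor Cdkn1b by 1.32 (0.00946), while the adhesion gene Icam1 rose by 0.93 (0.0247). For miR-103, 3 of 5 tested fell and 0 rose (median -1.05). They were Klf4 (-3.36, 0.000559), a factor of monocyte development, Dicer1 (-1.65) and Dapk1 (-1.05, 0.00604). At 21 d 4 of 7 miR-146 targets, 2 of 9 of miR-155 and 1 each of miR-223, of miR-221 and miR-222, and of miR-103 fell, and 0 rose, beside 3.27% and 2.56% of all genes. Over all genes 29.0% fell and 21.5% rose at 31 d. The lists overlap in part, and no list was tested against other genes or set beside clusters of its genes' level.

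**Figure D5:**
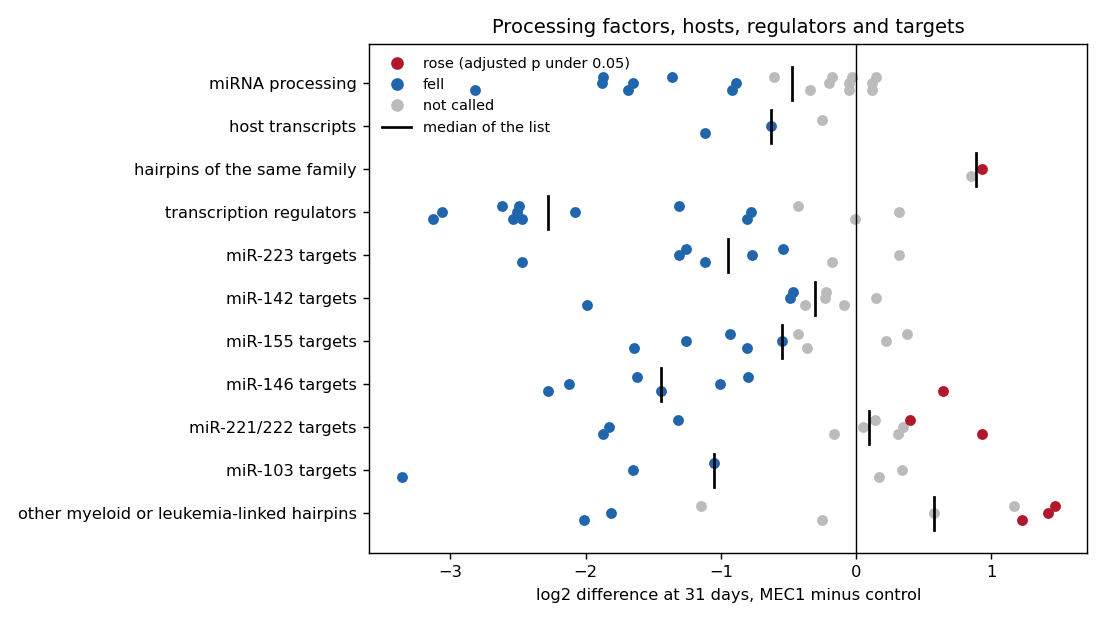
Log2 difference at 31 days, MEC1 minus control (x axis), of each tested gene in the lists of processing factors, hosts, related hairpins, regulators, targets and other hairpins, coloured by call, with the list median as a bar. Rises were called among the hairpins of the same family (1 rose, 0 fell), the other hairpins (3 rose, 2 fell) and the targets of miR-146 (1 rose, 6 fell) and of miR-221 and miR-222 (2 rose, 3 fell), and in the remaining lists the calls were falls.

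The genes whose 12 array values ran most like a member's were taken from 13724 named genes by Pearson r, as a description over arrays that share the group differences and array-wide shift given above. For Mir223 they were Pdzd8 (r = 0.97), the kinase Mapk14 (0.964) and the phosphatase Dusp1 (0.959), which were themselves bright. For Mir142 they were Tmem108 (0.979), Tmem182 (0.974) and Ttn (0.974), and for Mir221 Upk3bl (0.988), an immunoglobulin kappa variable gene (0.983) and Rab26 (0.98). For Mir103-2 they were Fsd1 (0.975), Hand2os1 (0.973) and Tmem121 (0.968), and for Mir222 Ces2f (0.942), Tm4sf1 (0.941) and Mir194-2 (0.94). Mir155 was most like Mir7042 (0.925), Zfp28 (0.887) and Mir297a-3 (0.875). The genes nearest the risen members were mostly dim and moved less than the member at 31 d. Upk3bl, nearest to Mir221, differed by 0.57 at 31 d against 4.39 for Mir221, and Fsd1, nearest to Mir103-2, by 0.50 against 4.21.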

How the data were processed

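Values were log2 intensities per transcript cluster, made by the authors with Affymetrix Expression Console and RMA per the submitters' processing notes, with no versions, and deposited for 12 arrays (1.66 to 19.93). Scanner files were not used here. Symbols came from the platform annotation: 31258 of 65956 clusters had 1 symbol, 1492 several and 33206 none. R 4.3.3 with limma 3.58.1 fitted the mean of each of the 4 groups (empirical Bayes, two-sided), and the fit was tested on simulated data. Members, gene lists and tests were chosen with earlier results of these data known. Of each list, up to 4 called genes with the largest difference at 31 d are named, and every gene of lists of 5 or fewer. Drosha, Dicer1 (among processing genes, and also named as a miR-103 target), Mir34c, Mir23a, Mir29b-1, Mir181a-2, Relb and Mir16-2 were named after their values were seen. The 4 within-array pairs were chosen then too. Mouse numbers mark separate animals: deviations of same-numbered arrays correlated from -0.36 to 0.42, so numbers were not used as pairs. The number of arrays limits the precision.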

Additional observations from a re-analysis of the deposited data

How the results depend on the processing

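The number of members called at 21 d was 2. It was 0 with no filter on dim clusters, no moderation, only the 6 arrays of the day, the hybridisation-control level as a covariate or a replicate block. It was 1 with quantile normalization or the mean over a symbol's clusters, and 5 with array weights. It ranged from 0 to 3 with each array left out in turn. At 31 d the number was 5, beside 16297 clusters. It was 3 with quantile normalization, no moderation or only the 6 arrays, and 0 with the covariate. With each array left out it was 3 to 5, beside 10647 to 16847 clusters. It was 3 without MEC1 31 d replicate 3 or without any 1 control 31 d array. With the replicate block the count at 31 d was 5. The replicate numbers mark separate mice, and the labels name no pairing. Whether same-numbered arrays shared a preparation is not known from the labels. Under the covariate Mir223 turned to 3.06 at 21 d and 4.57 at 31 d, Mir221 to -0.18 and -0.72, and Mir222 to -1.36 and -2.10. The slope of the covariate leans mostly on MEC1 31 d replicate 3. Mir155 at 21 d turned to 0.23 with array weights, and ranged from -0.73 to 0.26 with each array left out. The difference between the days and the control comparison stayed at 0 calls under the alternatives run. The cause of these changes was not tested. Of the members, Mir142, Mir221 and Mir103-2 were called at 31 d under all alternatives run except the covariate. For dim members, signal near the array median limits what a difference shows.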
